A study of Mus musculus with 2 samples.

Results

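The 9 genes Ugp2, Gyg, Gys2, Gbe1, Pygl, Phka2, Phkb, Phkg2 and Ppp1r3b encode the liver machinery that builds glycogen, breaks it down and switches between the 2 directions. They were chosen by symbol as core genes of that pathway, and they are 9 of the 43346 Ensembl genes in the deposited tables, with 51 of the 103639 annotated transcripts. The tissue was liver of 1 female C57BL/6J mouse, an inbred strain, aged 10 weeks and with no treatment or allele named in the labels. The polyA RNA of that liver was sequenced as 2 libraries that the labels call technical replicates 2 and 1, here library 2 and library 1; library 2 was made in May 2015. With 1 animal, every mean ± SD below (n = 2) is technical spread and says nothing of variation between mice. The study therefore gives the level of each gene in this liver and the difference between its libraries. In that difference, the library and any difference in date of preparation cannot be told apart.

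Glycogen is the branched polymer in which liver stores glucose after a meal and from which it releases glucose in fasting. UDP-glucose pyrophosphorylase makes the activated sugar, glycogenin starts a chain, glycogen synthase lengthens it and the branching enzyme adds branches, while glycogen phosphorylase removes glucose units from the ends. Phosphorylase kinase, an assembly of equal numbers of alpha, beta, gamma and calmodulin subunits, switches phosphorylase on by phosphorylating it. Protein phosphatase 1, brought to the glycogen particle by a targeting subunit, switches phosphorylase off and synthase on.

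Expected counts, the estimated reads or fragments per gene, totalled 19525500 in library 2 against 23309905 in library 1. Mitochondrial transcripts took 14.9% of TPM in library 2 against 40.7% in library 1, and nuclear protein-coding genes took 73.7% in library 2 against 37.6% in library 1. TPM is the deposited abundance per transcript length, scaled to the same total in each library. Nuclear protein-coding genes together thus had a smaller part of that total in library 1, which does not hold for every single gene. All 8 hepatocyte markers were detected in both libraries at a TPM of at least 1, with Alb at 49848 TPM in library 2 against 22690 in library 1. Of 6 skeletal muscle markers, 1 had a TPM of at least 1 in library 2 (Mylpf, 1.23) and 0 in library 1, and their summed level was 2.46 TPM in library 2 against 0.12 in library 1. Acta1 and Mylpf had 0 counts in library 1, and Myh4 had 0 in both libraries. Of 4 adipocyte markers, 0 reached 1 TPM, with a summed level of 1.72 TPM in library 2 against 0.20 in library 1, and Lep at 0 counts in both. Among cells that liver also holds, the summed level of 5 red cell markers was 2063 TPM in library 2 against 138 in library 1, that of 5 macrophage markers 136 against 27.8, and that of 5 endothelial markers 96.1 against 25.8. The 5 stellate cell markers summed to 145 TPM in library 2 against 159 in library 1, and the 5 bile duct markers to 63.2 against 47.8.

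All 9 glycogen genes were detected in both libraries, at levels that spanned 6.14 to 213 TPM in library 2 and 3.88 to 380 TPM in library 1. Their order was close to the same: 33 of the 36 gene pairs stood in the same order in both libraries. By mean TPM the order was Ugp2, Pygl, Ppp1r3b, Gbe1, Gys2, Phkg2, Phkb, Phka2 and Gyg. Neighbours whose means differed by less than the sum of their SDs were Ugp2 and Pygl, Ppp1r3b and Gbe1, Gbe1 and Gys2, Phkg2 and Phkb, and Phka2 and Gyg. The pairs that changed places between the libraries were Ppp1r3b with Gbe1, Phkg2 with Phkb, and Phka2 with Gyg. Every member held a whole number of counts in both libraries, with a deposited posterior SD of the count of 0, so no member's gene count was divided with another gene. In whole liver RNA, fewer cells of a type and less RNA per cell cannot be told apart.

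**Figure D1:**
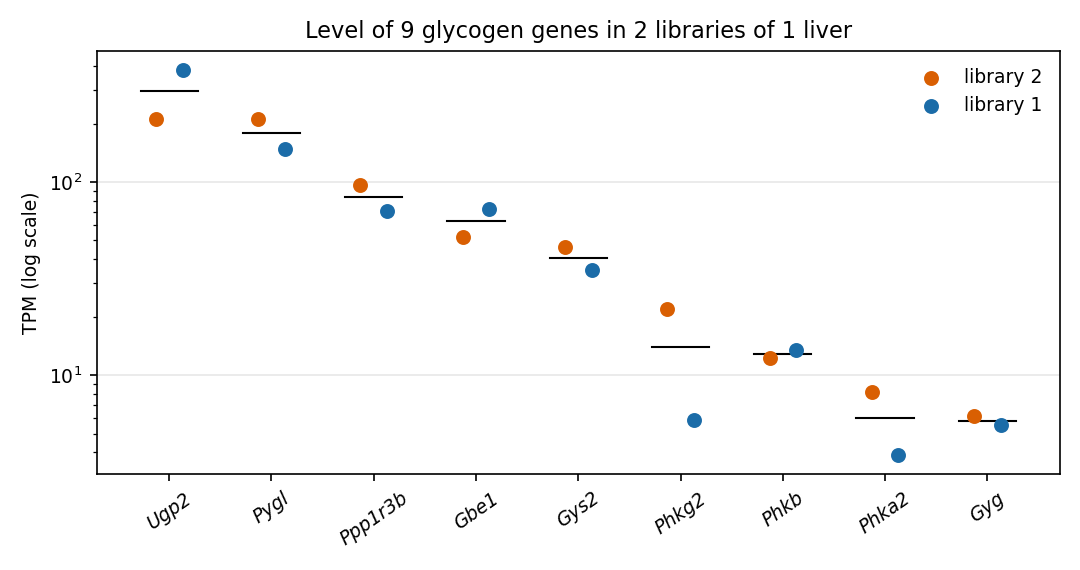
TPM on a log scale (y axis) of the 9 glycogen genes (x axis, in order of mean), with library 2 in orange on the left and library 1 in blue on the right of each pair and the mean of both libraries as a bar. Ugp2 read 213 TPM in library 2 against 380 in library 1, and Phkg2 showed the widest relative gap, 22.1 TPM in library 2 against 5.91 in library 1.

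Below, a log2 fold is library 2 over library 1 after TMM scaling, which balances the libraries on the trimmed mean of gene ratios, with an exact binomial interval at 95% that covers counting error only. A gene was called when its log2 fold was at least 1 in size and its adjusted p was under 0.05. The p comes from an exact binomial test, two-sided, on the expected counts, adjusted by Benjamini-Hochberg across every tested gene; it sets the reads of 1 library against those of the other and compares no conditions. Gene positions are on GRCm38 from GENCODE M21.

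Among the genes of synthesis, Ugp2 (ENSMUSG00000001891.12, chr11:21321138-21371201, minus strand) encodes UDP-glucose pyrophosphorylase, which makes the sugar donor. It read 213 TPM in library 2 against 380 TPM in library 1 (mean 296 ± 118, SD), from 7135 and 18230 expected counts, and ranked 523 and 134 among 21461 nuclear protein-coding genes. Its log2 fold was −1.68 (−1.72 to −1.64), called lower in library 2, with an adjusted p that was 0 at machine precision. Ugp2 was the highest of the 9 genes in library 1 and stood level with Pygl in library 2.

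Ugp2 RNA was assigned almost wholly to a pair of protein-coding transcripts that begin at different first exons. Ugp2-201, with its first exon at chr11:21371015-21371201, held 47.0% of the gene's TPM in library 2 against 59.8% in library 1. Ugp2-202, with its first exon at chr11:21370187-21370477, held 51.96% in library 2 against 39.6% in library 1. The transcript with the larger share thus differed between the libraries. The first 60 coding bases of both are shown because they are where the encoded proteins part (GENCODE M21, GRCm38, minus strand, chr11:21354333-21354392 for Ugp2-201 and, across an intron, chr11:21354366-21370205 for Ugp2-202). Capitals mark the 19 bases that come from the first exon of Ugp2-202.
Ugp2-201: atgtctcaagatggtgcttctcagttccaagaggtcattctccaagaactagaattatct
Ugp2-202: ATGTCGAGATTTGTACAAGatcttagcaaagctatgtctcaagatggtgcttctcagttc
Ugp2-202 starts 33 coding bases, or 11 codons, before the start codon of Ugp2-201, and the last 27 bases printed for it are the first 27 of Ugp2-201. The open reading frames were 1524 bases in Ugp2-202 and 1491 in Ugp2-201.

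Gyg (ENSMUSG00000019528.14, chr3:20122084-20155317, minus strand) encodes glycogenin, the protein that glucosylates itself to prime a new chain. It read 6.14 TPM in library 2 against 5.53 TPM in library 1 (mean 5.84 ± 0.43, SD), from 143 and 191 counts. Gyg was the lowest of the 9 genes by mean and had the smallest difference in TPM between the libraries in absolute terms. Its log2 fold was −0.74 (−1.06 to −0.42; exact binomial test, adjusted p = 5.96e-06), which was not called. All of its counts were assigned to Gyg-203.

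Gys2 (ENSMUSG00000030244.7, chr6:142422613-142473109, minus strand) encodes the liver glycogen synthase, the enzyme that lengthens the chain. It read 46.4 TPM in library 2 against 35.04 TPM in library 1 (mean 40.7 ± 8.06, SD), from 1318 and 1237 counts. The log2 fold was −0.23 (−0.34 to −0.12; exact binomial test, adjusted p = 8.26e-05), not called. Its TPM was higher and its TMM fold negative in library 2, so the sign for Gys2 rests on the scaling.

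Gys1, the synthase of muscle and other tissues, read 0.72 TPM in library 2 against 0.25 in library 1, from 39 and 13 counts. Gys2 held 98.5% of the TPM of the synthase pair in library 2 against 99.3% in library 1. The first 60 coding bases of each are shown because both genes carry, near the start, the codon of a serine that phosphorylase kinase and other kinases phosphorylate (capitals, codon 8 counted from the start codon). Gys2-201 lies at chr6:142472742-142472801 on the minus strand and Gys1-201 at chr7:45435053-45435112 on the plus strand.
Gys2-201: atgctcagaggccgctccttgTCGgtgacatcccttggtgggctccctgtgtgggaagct
Gys1-201: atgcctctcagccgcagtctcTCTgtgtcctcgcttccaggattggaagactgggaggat
The stretches differ at 28 of 60 bases, and the whole coding sequences were 70.3% identical over aligned bases. Of the 2633 words of 25 bases in Gys2-201, 5 occurred in Gys1-201.

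Gbe1 (ENSMUSG00000022707.12, chr16:70313949-70569716, plus strand) encodes the glycogen branching enzyme. It read 52.2 TPM in library 2 against 73.0 TPM in library 1 (mean 62.6 ± 14.7, SD), from 2200 and 4530 counts. Its log2 fold was −1.36 (−1.44 to −1.29; exact binomial test, adjusted p = 3.32e-311), and it was called lower in library 2. The ratio of Gbe1 to Gys2 TPM was 1.12 in library 2 against 2.08 in library 1. Without transcripts under 500 bases, among them a short Gys2 transcript described further on, the ratio was 1.54 in library 2 against 3.45 in library 1, so its size rests on that transcript while it was the lower in library 2 either way.

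For breakdown, Pygl (ENSMUSG00000021069.12, chr12:70190811-70231488, minus strand) encodes liver glycogen phosphorylase. It read 213 TPM in library 2 against 148 TPM in library 1 (mean 180 ± 45.7, SD), from 8591 and 6633 counts, and ranked 524 and 351 among nuclear protein-coding genes. Its log2 fold was 0.05 (0.004 to 0.097; exact binomial test, adjusted p = 0.0403), the smallest of the 9 in size, and was not called. Set against the synthase, the Gys2 to Pygl ratio of TPM was 0.218 in library 2 against 0.236 in library 1 (mean 0.227 ± 0.013, SD). Without transcripts under 500 bases, which both genes have, it was 0.161 in library 2 against 0.196 in library 1. Phosphorylase RNA thus exceeded synthase RNA in both libraries either way, while the closeness of the 2 ratios rests in part on short transcripts.

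Pygb, the brain phosphorylase gene, read 2.05 TPM in library 2 against 0.54 in library 1, and Pygm, the muscle phosphorylase gene, read 1.07 in library 2 against 0.02 in library 1. Pygl held 98.6% of the phosphorylase TPM in library 2 against 99.6% in library 1. Pygm had 22 counts in library 2 against 1 in library 1 (log2 fold 3.58, interval 1.51 to 9.50). Skeletal muscle markers summed to 2.46 TPM in library 2 against 0.12 in library 1. Pygm transcripts had a GC content of 54.4%, and nuclear genes within 2 percentage points of that had a median fold of 1.58. After subtraction of the GC curve described below, the Pygm fold was 1.95 and not called. The part of muscle RNA or of GC content in the Pygm value was not tested. The first 90 coding bases of the 3 genes are shown because they hold the serine codon that phosphorylase kinase acts on (capitals, codon 15 counted from the start codon). Pygl-201 lies at chr12:70227494-70227583 on the minus strand, Pygb-201 at chr2:150786868-150786957 and Pygm-201 at chr19:6384479-6384568, both on the plus strand.
Pygl-201: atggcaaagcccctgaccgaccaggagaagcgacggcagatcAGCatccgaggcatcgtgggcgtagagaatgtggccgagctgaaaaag
Pygb-201: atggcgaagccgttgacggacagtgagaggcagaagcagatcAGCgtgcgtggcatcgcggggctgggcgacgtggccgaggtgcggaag
Pygm-201: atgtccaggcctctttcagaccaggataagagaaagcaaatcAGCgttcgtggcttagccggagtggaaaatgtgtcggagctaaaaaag
The codon was the same in all 3 genes, while Pygl differed from Pygb at 27 and from Pygm at 25 of the 90 bases. Over the aligned coding sequences Pygl was 75.9% identical to Pygb and 76.0% to Pygm. It shared 8 of its 2801 words of 25 bases with Pygb and 5 with Pygm.

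Of the phosphorylase kinase genes, Phkg2 (ENSMUSG00000030815.7, chr7:127573340-127583307, plus strand) encodes the catalytic gamma subunit of liver and testis. It read 22.1 TPM in library 2 against 5.91 TPM in library 1 (mean 14.01 ± 11.5, SD), from 402 and 146 counts. Its log2 fold was 1.14 (0.86 to 1.42; exact binomial test, adjusted p = 2.72e-17), and it was the 1 member called higher in library 2. The interval reaches below the threshold of 1. Ccdc189, which overlaps it on the opposite strand, had 11 counts in library 2 against 1 in library 1. Whether counting used strand is not given in the sources used here. The Phkg2 counts were whole, with a posterior SD of 0 in both libraries, so the tool did not divide them with Ccdc189. The origin of reads in the overlap was not tested.

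Phkb (ENSMUSG00000036879.11, chr8:85840959-86061376, plus strand) encodes the beta subunit, a regulatory subunit shared by liver and muscle. It read 12.3 TPM in library 2 against 13.5 TPM in library 1 (mean 12.9 ± 0.83, SD), from 507 and 910 counts. The log2 fold was −1.17 (−1.33 to −1.01; exact binomial test, adjusted p = 6.75e-50), called lower in library 2. The TPM values lay close together, so the call rests on how the libraries were scaled.

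Phka2 (ENSMUSG00000031295.9, chrX:160502166-160598878, plus strand) encodes the liver alpha subunit, a regulatory subunit. It read 8.18 TPM in library 2 against 3.88 TPM in library 1 (mean 6.03 ± 3.04, SD), from 446 and 283 counts. The log2 fold was 0.33 (0.12 to 0.55; exact binomial test, adjusted p = 0.00327), not called. Phka1, the muscle alpha subunit gene, read 1.61 TPM in library 2 against 1.2 in library 1, so Phka2 held 83.6% of the pair's TPM in library 2 against 76.4% in library 1. Phkg1, the muscle gamma subunit gene, had 2 counts in library 2 against 0 in library 1, where a count of 0 allows up to 3; Phkg2 held 99.5% of that pair's TPM in library 2 against 100% in library 1.

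The kinase subunits, which the enzyme holds in equal numbers, did not keep a constant RNA ratio between the libraries. Phkg2 stood at 1.80 times Phkb in TPM in library 2 and 0.438 times in library 1. Phka2 stood at 0.664 times Phkb in library 2 and 0.288 times in library 1. The order of Phkg2 and Phkb therefore reversed between libraries of the same liver, whereas Phka2 was below Phkb in both. These ratios take all transcripts of a gene, coding or not. Coding transcripts held 64.2% of Phkg2 TPM in library 2 against 32.5% in library 1. For Phkb the shares were 51.1% and 38.3%, and for Phka2 88.1% and 31.6%.

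Ppp1r3b (ENSMUSG00000046794.8, chr8:35375739-35388139, plus strand) encodes the subunit that brings protein phosphatase 1 to liver glycogen. It read 96.7 TPM in library 2 against 70.6 TPM in library 1 (mean 83.7 ± 18.5, SD), from 5997 and 6474 counts, all on its 1 annotated transcript. The log2 fold was −0.43 (−0.48 to −0.38; exact binomial test, adjusted p = 2.72e-62), not called. Among the 7 genes for glycogen-targeting subunits it held 58.2% of TPM in library 2 against 59.1% in library 1.

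Ppp1r3c, which encodes another glycogen-targeting subunit of the same phosphatase, read 63.8 TPM in library 2 against 46.9 TPM in library 1, from 2491 and 2712 counts. The Ppp1r3b to Ppp1r3c ratio was 1.517 in library 2 against 1.505 in library 1 (mean 1.51 ± 0.0083, SD), the steadiest of the 9 ratios computed. The remaining members of the family were low: Ppp1r3e read 4.43 TPM in library 2 against 1.79 in library 1, Ppp1r3g 1.10 and 0.16, and Ppp1r3d, Ppp1r3f and the muscle gene Ppp1r3a between 0 and 0.11 in either library. Liver RNA of this animal thus held a pair of abundant targeting subunits, in nearly the same proportion in both libraries.

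**Figure D2:**
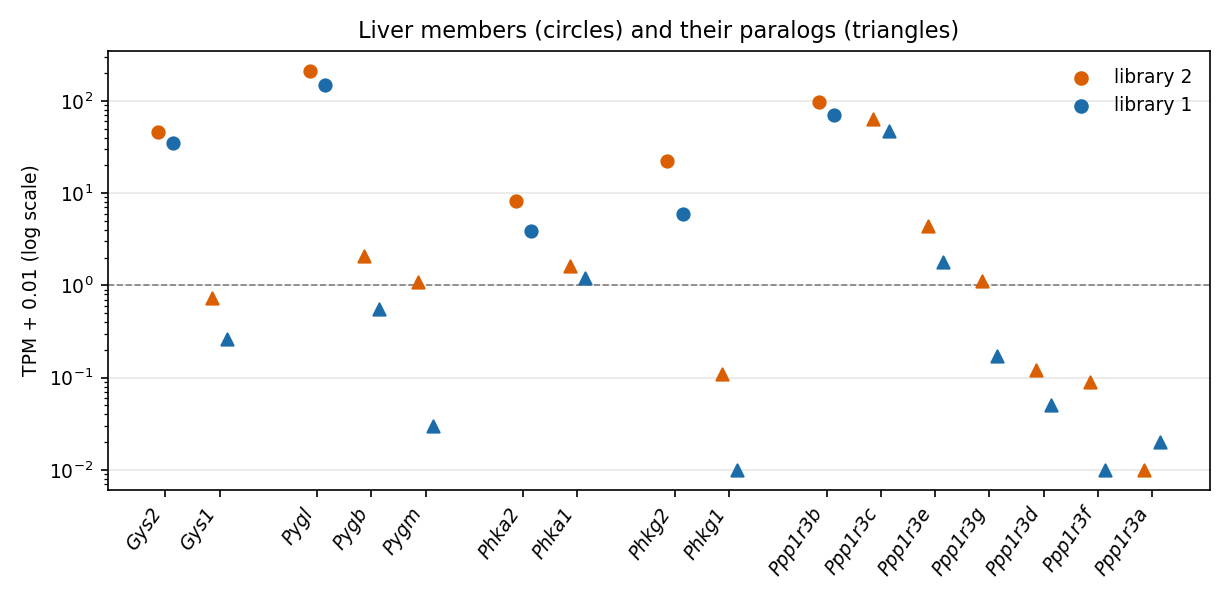
TPM plus 0.01 on a log scale (y axis) of 5 members (circles) and their paralogs (triangles), grouped by family, with library 2 in orange on the left and library 1 in blue on the right; the dashed line is 1 TPM. Ppp1r3c, at 63.8 TPM in library 2 against 46.9 in library 1, was the highest of the 11 paralogs.

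Set beside each other, 4 of the 9 members were called between the libraries, Phkg2 higher and Ugp2, Gbe1 and Phkb lower in library 2. Over all 12728 tested genes, 56.3% were called, 32.6% higher and 23.7% lower, so the members' count lies near that background. Of the markers, 5 of 5 red cell, 4 of 5 macrophage and 2 of 5 endothelial genes were called higher in library 2. So were 2 of 8 hepatocyte and 2 of 5 bile duct genes, and 0 genes of these sets were called lower. Of 5 stellate genes, 2 were called higher and 1 (Lrat) lower. After subtraction of the GC curve described below, 2 red cell, 1 endothelial, 1 hepatocyte, 0 macrophage and 0 bile duct genes were called higher. A further 2 red cell genes were not called, and not all 5 had a value in that setting. Of the stellate genes, 1 was then called higher and 1 lower, against 6.98% and 7.13% of all genes. The part of these cell types in the members' values was not tested. The members' median log2 fold was −0.43, against 0.04 over all tested genes. In TPM, 6 members were higher and 3 lower in library 2, while by TMM fold 3 were positive and 6 negative. Scaling by total count shifts the median of all genes by 0.58 toward library 2 and ratios of TPM shift it by 0.80. Under total count, Phkg2 (1.71) remained called higher and Ugp2 (−1.10) lower, against 49.3% of genes called (41.8% higher and 7.43% lower), and Gys2 and Ppp1r3b turned positive. Under ratios of TPM, Phkg2 (1.89) and Phka2 (1.06) were called higher and 0 members lower, against 48.8% of genes called (46.3% higher and 2.55% lower), and Gyg turned positive as well.

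**Figure D3:**
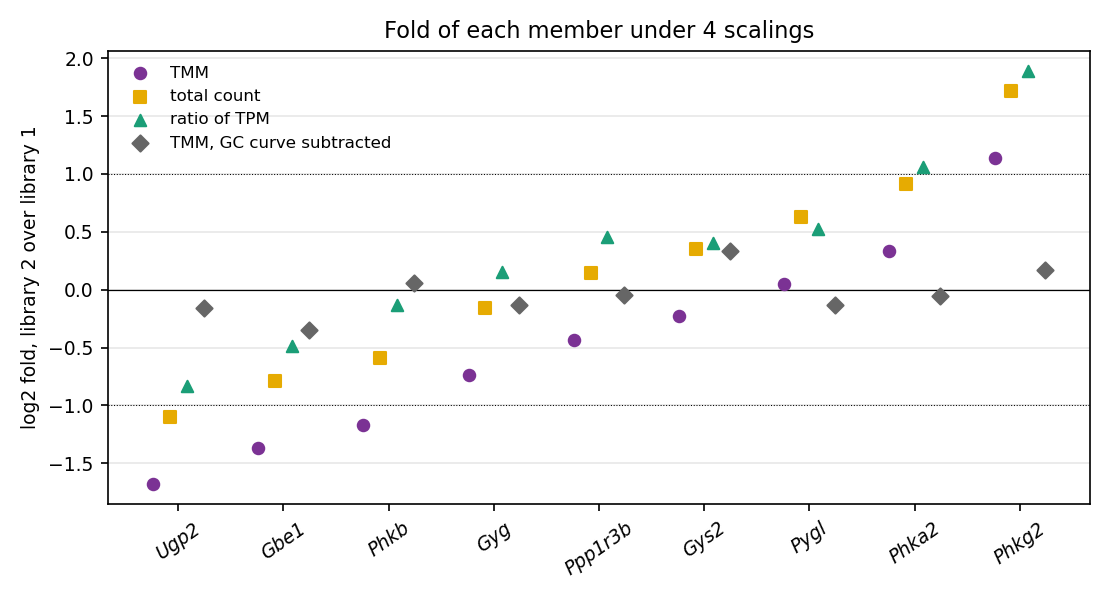
Log2 fold of library 2 over library 1 (y axis) of each member (x axis, in order of TMM fold) under TMM, total count, ratio of TPM, and TMM after a GC curve was subtracted; dotted lines mark a size of 1. Phkg2 lies at 1.14 with TMM and 0.17 after the GC curve, and Ugp2 at −1.68 with TMM and −0.16 after it.

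The members' folds followed the GC content of their transcripts. Ugp2, with the lowest GC content (40.4%), had the lowest fold, and Phkg2, with the highest (52.7%), had the highest. Phkb (42.7%) and Gbe1 (44.2%) lay on the low side, Gyg (46.5%), Gys2 (46.7%) and Ppp1r3b (47.5%) between, and Pygl (50.02%) and Phka2 (50.7%) above 0. Spearman's rho between fold and GC content over the 9 genes was 0.97, given as a description, since all 9 share the same libraries and the GC content is weighted by TPM from them. The members' median GC content was 46.7%, against 49.8% over all tested genes with a value.

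A stretch of coding sequence from each end of that range shows the contrast (GENCODE M21, GRCm38). Capitals mark G and C. The stretch of Phkg2-201 covers coding bases 7 to 96 (chr7:127573878-127577535, plus strand, across an intron), and that of Ugp2-202 covers coding bases 124 to 213 (chr11:21353391-21354302, minus strand, across an intron).
Phkg2-201: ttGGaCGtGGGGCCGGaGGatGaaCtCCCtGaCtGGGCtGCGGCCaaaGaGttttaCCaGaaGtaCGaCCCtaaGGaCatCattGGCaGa
Ugp2-202: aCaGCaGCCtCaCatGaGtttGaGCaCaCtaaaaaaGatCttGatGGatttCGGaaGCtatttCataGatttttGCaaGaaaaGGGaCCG
G and C make up 50 of the 90 bases (55.6%) in Phkg2-201, whose whole coding sequence has 55.01%, and 36 (40.0%) in Ugp2-202, whose whole coding sequence has 40.1%.

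Against nuclear genes within 2 percentage points of its own GC content, most members lay close to the middle. Ugp2, at −1.68, was set against a median of −1.501 over 1269 genes, 91.7% of them called. Phkb, at −1.17, was set against −1.21 over 1920 genes, and Phkg2, at 1.14, against 0.97 over 2584 genes. Of the 9 members, 7 fell between the quartiles of such genes. The exceptions were Gys2 (−0.23 against a median of −0.60, quartiles −0.93 to −0.24) and Gbe1 (−1.36 against −1.02, quartiles −1.26 to −0.73). After a smooth curve of fold on GC content was subtracted, 0 of the 9 members were called, against 14.1% of 12070 genes (6.98% higher and 7.13% lower), and the largest sizes left were those of Gbe1 (−0.35) and Gys2 (0.34).

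**Figure D4:**
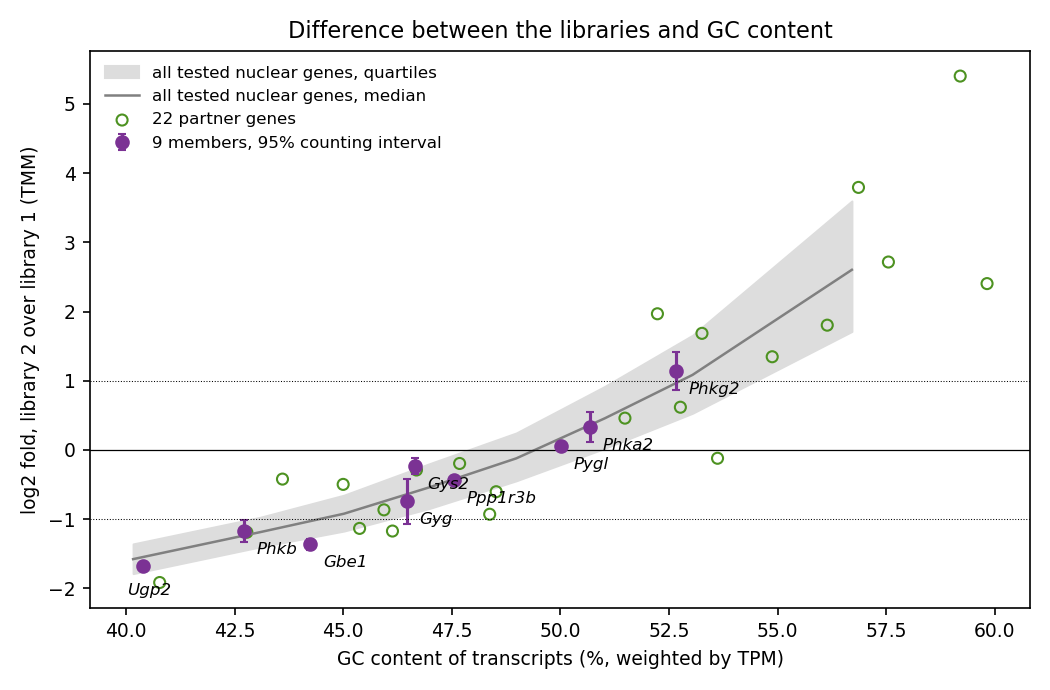
Log2 fold of library 2 over library 1 (y axis) against the GC content of transcripts in percent (x axis) for the 9 members (filled, with 95% counting intervals) and 22 partner genes (open), over the median and quartiles of all tested nuclear genes in classes of GC content. Members run from Ugp2 at 40.4% GC and −1.68 to Phkg2 at 52.7% GC and 1.14, along the median of all genes.

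The division of each gene between its annotated transcripts also differed between the libraries. Of the 51 annotated transcripts, 34 had counts in either library and 20 held at least 10% of their gene's TPM in a library. Of these 20, 17 in 7 genes moved by at least 10 percentage points. Over all 5128 genes with at least 2 transcripts and a mean TPM of at least 5, 66.0% had such a change, against 7 of the 8 members with more than 1 transcript. By share of expected counts rather than TPM, 10 transcripts moved that far. These shares are the estimates of the authors' tool, which divides reads that fit several transcripts, and no library was repeated.

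Short annotated fragments weighed on 2 of the genes. Pygl-204, a retained-intron fragment of 329 bases (chr12:70197399-70197841) with 80 bases outside the exons of Pygl-201, held 0.86% of Pygl TPM in library 2 against 27.2% in library 1, from 4.12 and 136.7 counts. Gys2-202, a protein-coding fragment of 314 bases (chr6:142422617-142423619) that lies wholly within exons of Gys2-201, held 27.0% of Gys2 TPM in library 2 against 39.5% in library 1. Its counts were 25.4 in library 2 against 42.4 in library 1, or 1.93% and 3.43% of the gene's. The TPM share was far above the count share, since TPM divides by an effective length that was 132 bases in library 2 against 134 in library 1 for this transcript. Without transcripts under 500 bases, a setting chosen after the data were seen, Gys2 read 33.9 TPM in library 2 against 21.2 in library 1, and Pygl 210.9 in library 2 against 107.8 in library 1.

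In Phkg2 and Phka2, the coding transcripts together took a larger share in library 2. Phkg2-201, the full coding transcript, held 64.2% of Phkg2 TPM in library 2 against 32.5% in library 1. The retained-intron transcript Phkg2-204 held 8.42% in library 2 against 45.5% in library 1, and Phkg2-208, also with a retained intron, 3.62% and 15.4%. Phkg2-206, annotated for nonsense-mediated decay, went the other way, with 10.05% in library 2 against 0% in library 1. Library 1 had 146 counts of Phkg2 in all, so these shares rest on few reads: 60.6 counts on Phkg2-201 and 39.9 on Phkg2-204. In Phka2, the coding transcripts Phka2-203 (52.1% in library 2 against 28.5% in library 1) and Phka2-201 (24.5% and 0%) had larger shares in library 2. Phka2-206, a processed transcript without an annotated reading frame, held 8.70% in library 2 against 59.5% in library 1. By posterior mean TPM the sizes differed: Phka2-203 held 36.8% in library 2 against 12.7% in library 1. Phka2-201 held 22.8% and 5.26% by that measure, and Phka2-206 8.45% and 42.4%. Library 1 had 283 counts of Phka2 in all. Coding transcripts took 90.7% of Phka2 counts in library 2 against 35.6% in library 1, and 75.3% and 41.5% of Phkg2 counts. In Phkb the full coding transcript Phkb-201 held 33.4% of TPM in library 2 against 36.0% in library 1, and the processed transcript Phkb-207 48.9% and 61.6%. The widest move in Phkb was that of Phkb-206, a coding fragment of 630 bases within exons of Phkb-201, at 16.05% in library 2 against 2.27% in library 1, from 13.5 and 3.12 counts.

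In several genes, the transcript with the smaller share in library 2 had the lower GC content over its whole length. Pygl-204 had 46.8% against 50.4% of Pygl-201, Phkg2-204 45.7% against 54.5% of Phkg2-201, and Phka2-206 48.8% against 50.8% of Phka2-203. Gbe1-201 (43.6% GC) held 47.3% of Gbe1 TPM in library 2 against 59.0% in library 1, and Gbe1-203 (45.1% GC) 51.6% and 39.6%. In Ugp2 the reverse held, since Ugp2-201, the transcript with the smaller share in library 2, had 41.5% GC against 39.1% of Ugp2-202. Over only the bases that the other transcript lacks, GC content was 53.75% in Pygl-204, above the whole of Pygl-201. It was 40.6% in Phkg2-204 and 39.8% in Phka2-206 over such bases. For Gbe1-201 and Gbe1-203 it was 57.1% (7 bases) and 75.9%, and for Ugp2-201 and Ugp2-202 70.1% and 40.1%. The part of GC content in these shares was not tested.

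**Figure D5:**
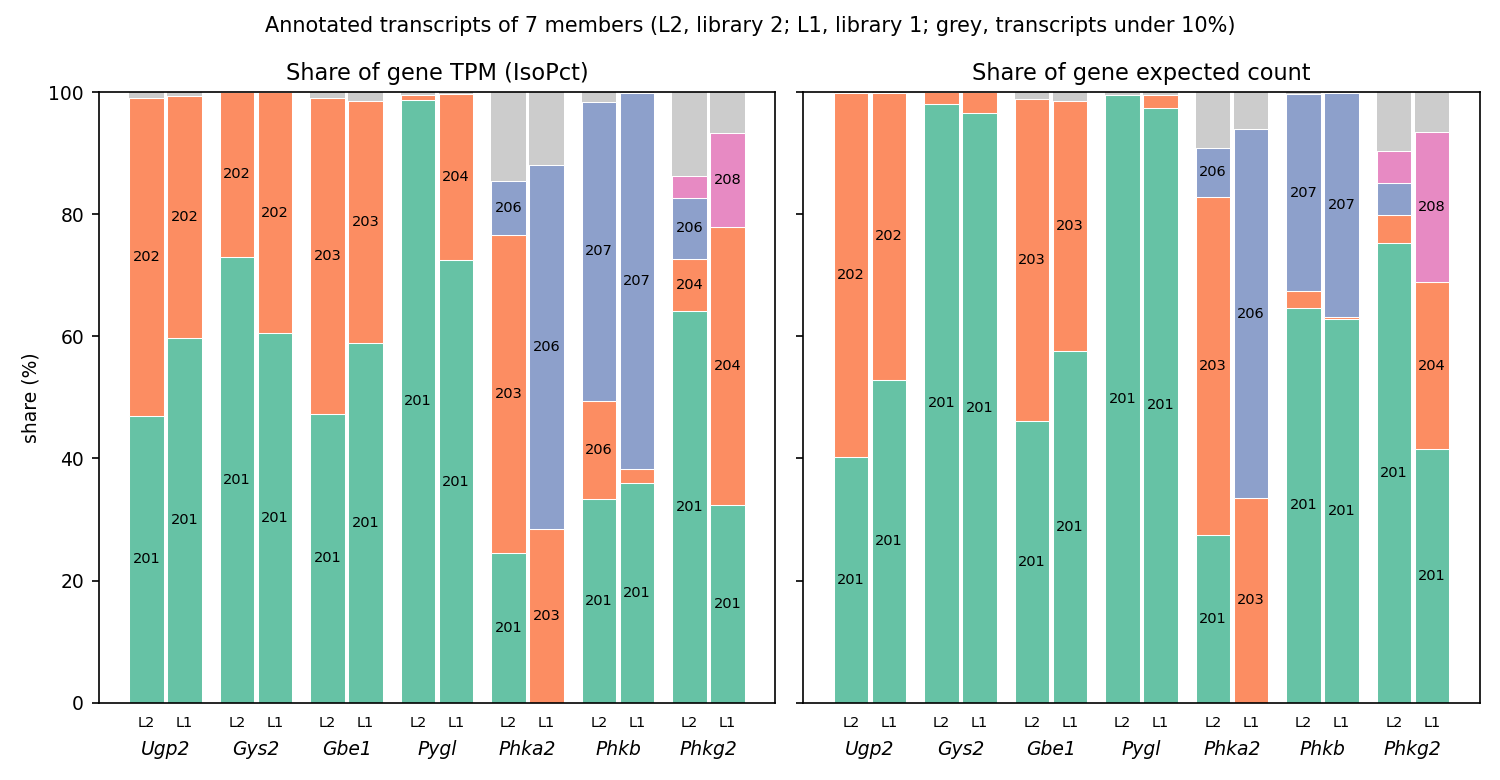
Share of each gene's TPM (left) and of its expected counts (right), in percent (y axis), assigned to the named transcripts of 7 members (x axis), with library 2 left of library 1 in each pair and the transcript number on the bar. Gys2-202 holds 27.0% of TPM in library 2 against 39.5% in library 1 on the left, but 1.93% and 3.43% of counts on the right.

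The other genes of the pathway were taken as a list of 22, chosen for their roles. At a TPM of at least 1, 21 were detected in library 2 against 20 in library 1, and 8 were called higher, 4 lower and 10 were not called, a share near the 56.3% of all genes. Of the 7 genes for glucose phosphates and transport, 3 were called higher and 0 lower. Gckr, which encodes a regulator of hepatic glucose use, read 75.7 TPM in library 2 against 10.4 in library 1 (log2 fold 1.97). Slc37a4, the glucose 6-phosphate transporter of the endoplasmic reticulum, read 68.4 TPM in library 2 against 11.5 in library 1 (1.68). G6pc, the catalytic subunit of glucose 6-phosphatase, read 196 TPM in library 2 against 121 in library 1 (−0.20). Slc2a2, the hepatocyte glucose carrier, read 122 TPM in library 2 against 107 in library 1 (−0.42). Neither G6pc nor Slc2a2 was called. Nuclear genes of like GC content had a median fold of 0.79 for Gckr, 1.17 for Slc37a4, −0.41 for G6pc and −1.11 for Slc2a2.

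Gaa, the acid glucosidase that degrades glycogen in lysosomes, had the widest difference of the list. It read 27.7 TPM in library 2 against 0.48 in library 1, from 1348 and 25 counts (log2 fold 5.40, interval 4.86 to 6.06). Its GC content was 59.2%, and genes within 2 percentage points of that had a median fold of 3.42. Stbd1, which encodes a glycogen-binding membrane protein, read 27.4 TPM in library 2 against 10.7 in library 1 (0.46), not called.

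Among the 10 regulatory genes, partners of 1 function stood on both sides. The phosphatase 1 catalytic subunit Ppp1ca read 170.3 TPM in library 2 against 26.3 in library 1 (log2 fold 1.80, called higher), Ppp1cb 25.2 and 52.5 (−1.92, called lower) and Ppp1cc 51.3 and 50.3 (−0.60, not called). The synthase kinases Gsk3a (24.9 TPM in library 2 against 2.53 in library 1, 2.40) and Gsk3b (6.17 and 6.48, −1.17) were called higher and lower. Calm3 was called higher (2.72) and Calm2 lower (−1.19); both encode calmodulin, which is also the fourth subunit of phosphorylase kinase. Prkaca (1.35) was called higher and Prkacb (−1.13) lower; both encode catalytic subunits of protein kinase A, which activates phosphorylase kinase. Under total count and under ratios of TPM, the 1 gene of the list still called lower was Ppp1cb. After the GC curve Ppp1ca, Prkaca, Calm3 and Gsk3a had negative values and Calm2 a positive one. Gaa and Gckr were then called higher and Gsk3a and Nhlrc1 lower. Epm2a and Nhlrc1, for the laforin and malin proteins of glycogen quality control, were not called, at 3.07 and 0.92 TPM in library 2 and 3.17 and 0.54 in library 1.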

How the data were processed

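The liver of 1 mouse gave 2 polyA libraries, labelled technical replicates, each with a gene and a transcript table. Per the file headers and the deposited descriptions, reads were aligned to mm10 and counted on annotation M4. No source used here names the aligner, the quantification tool or the strand setting. The deposited expected counts are estimated and not normalised. The deposited TPM values are per transcript length and sum to 1000000 in each library. The deposited FPKM values and the authors' interval bounds of the TPM signal were not used for a result. The deposited isoform shares are a percent of gene TPM. The deposited posterior SD of the count is the authors' score of how far a count was divided.

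Symbols, positions and sequences came from GENCODE M21 (GRCm38), which gave a symbol to 42462 of 43346 genes. Rounded counts with a sum of at least 20 were scaled with TMM (edgeR 4.0.16, R 4.3.3), and folds used a prior count of 0.5. With a single library per side a quasi-likelihood test has nothing left to estimate its spread. Counts were therefore compared by an exact binomial test (scipy 1.17.1) over 12728 genes. The computation was checked on simulated counts with 200 genes changed and counting error only, as the test assumes. That check cannot show how the test behaves on these libraries. Reads are not independent molecules, so intervals cover counting error only. GC content is the TPM-weighted mean over transcripts; the GC curve was a loess (span 0.3) on nuclear genes. Other settings were DESeq2 1.42.0 size factors, total count, ratios of TPM, other count minimums, no mitochondrial genes, posterior columns and each library alone.

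The named genes are the 9 members, 11 paralogs and 22 partners of the pathway. Values of some partners are not reported here. Members and lists were chosen with earlier results of these data known.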

Additional observations from a re-analysis of the deposited data

How the results depend on the processing

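Calls among the members did not change with DESeq2 size factors, with count minimums of 1 or 200, or without mitochondrial genes, where 40.8% to 56.6% of all genes were called. Members called higher numbered 0 after the GC curve and 2 with ratios of TPM, and members called lower 1 under total count, 0 after the GC curve and 0 with ratios of TPM, or 2, 0 and 2 in all, against 4. Partner genes called higher numbered 10 under total count, 3 after the GC curve and 10 with ratios of TPM, against 8 of 22 with TMM. Those called lower numbered 1, 2 and 1 in the same order, against 4 with TMM. Over all genes, 41.8%, 6.98% and 46.3% were called higher in these settings and 7.43%, 7.13% and 2.55% lower. The median member fold of −0.43 became 0.15 under total count, −0.34 with at least 200 counts, −0.051 after the GC curve and 0.41 with ratios of TPM. After the GC curve Phkb turned to 0.058, Calm2 to 0.027, Calm3 to −0.23, Gsk3a to −1.35, Ppp1ca to −0.57 and Prkaca to −0.50. The cause of these changes was not tested.

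The median member level, 5.34 as log2(TPM + 0.1), was 6.26 when TPM was rescaled to nuclear protein-coding genes and 4.75 without transcripts under 500 bases, and ran from 5.14 to 5.54 with either library alone. The median share of a member within its family over the 5 families, 98.9%, was 96.2% by posterior mean TPM and 98.5% to 99.3% with either library alone; the share of Gys2 was 97.6% by posterior mean TPM. Transcripts that moved by at least 10 points numbered 10 by share of counts and 16 by posterior mean share, against 17. No paired analysis was possible because the series has 1 group. With 1 animal, no value here carries an error between animals, and the posterior and counting intervals cover neither the preparation of the libraries nor the division of reads between transcripts.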
